A study of Mus musculus with 2 samples.

Results

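The cells described here are the midlobular and pericentral sinusoidal endothelial cells of the mouse liver, as sampled by scRNA-seq of liver non-parenchymal cells (NPCs). They were chosen by their own RNA: a member had an endothelial signal (Kdr, Ptprb and Flt4 together at 25 or more unique molecular identifiers, UMIs, per 10000), at least 3 UMIs of Kit and Wnt2 together, and no more than 1 UMI each of the sets Msr1, Efnb2 and Dll4 (zone 1, the periportal end of the sinusoid), Gja5 and Nrg1 (portal vessels) and Rspo3, Wnt9b and Selp (central vein). Cells with more than 2 UMIs of Lrat and Reln (hepatic stellate cells) or more than 3 of Cd79a, Cd3e and Cd5l (B cells, T cells and Kupffer cells) were left out. The rule selected 534 of the 14567 cells in the series, 408 in the normal library and 126 in the fibrosis library. The normal library came from 1 male C57BL/6 mouse given olive oil, and the fibrosis library from 1 male C57BL/6 mouse given CCl4, 15% in olive oil at 0.6 µl per g of body weight, an agent that injures the hepatocytes around the central vein. Both mice were 8 weeks old, both were injected intraperitoneally 2 times a week for 6 weeks, and the fibrotic liver was taken 48 h after the last injection. Each condition is therefore 1 animal, no difference between the libraries has a replicate check, no test was made and no p-value is given. Intervals below are 95% intervals for counting error only, and cells of 1 library were not taken as replicates.

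Blood crosses the liver lobule from the portal vessels to the central vein along sinusoids lined by fenestrated liver sinusoidal endothelial cells (LSECs). LSECs clear waste molecules through scavenger receptors and send signals such as Wnt2 and Bmp2 to the neighbouring hepatocytes. Wnt ligands made near the central vein set the pericentral metabolic programme of hepatocytes, and Kit, the receptor for stem cell factor, marks LSECs toward that end. In fibrosis LSECs are known to lose fenestrae and scavenger function and to lay down a basement membrane, a process called capillarization.

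The normal library held 8130 cells with 44062632 UMIs (median 4144.5 per cell) and the fibrosis library 6437 cells with 53288463 UMIs (median 5619). After cells with 10% or more mitochondrial UMIs or no more than 200 genes were removed, 7471 and 6132 remained, of which 3024 and 2448 passed the endothelial gate. The libraries had 15 cell barcodes in common, and 1 normal and 1 fibrosis member carried one of these. Members had a median of 5228.5 UMIs and 2520.5 genes in the normal library, and 6616 UMIs and 3043 genes in the fibrosis library. Values are given for 3 other sets of cells chosen by the same kind of rule: zone 1 cells (at least 3 UMIs of Msr1, Efnb2 and Dll4 with no more than 1 of Kit and Wnt2; 634 normal and 369 fibrosis cells), central vein cells (at least 3 UMIs of Rspo3, Wnt9b and Selp; 310 and 119 cells), and lymphoid cells outside the endothelial gate (1115 and 450 cells), which should lack endothelial RNA and serve as a background level. Some of them held many UMIs of other cell types' genes, so their levels are also given without the 3 cells that held most UMIs of a gene, a choice made after seeing the data, where that moved a level by over 1.5 times or past that of the members.

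Kit and Wnt2 chose the members, so their values describe the rule and are no finding. In the normal library 344 of 408 members (84.3%) held UMIs of both, 55 of Kit without Wnt2 and 9 of Wnt2 without Kit. In the fibrosis library the numbers were 103 of 126 (81.7%), 20 and 3. The sum of both ran from 3 to 22 UMIs per normal member and from 3 to 25 per fibrosis member, with a median of 6 in each. Cells just inside the limit, with exactly 3 UMIs, numbered 76 and 28, and carried Kit at 4.31 and 5.22 UMIs per 10000. The 119 and 35 cells just outside it, with 2 UMIs, were shallower (median 2778 and 3207 UMIs, against 3737.5 and 4114.5 inside) and carried Kit at 3.57 and 3.55. The limit on raw counts thus cuts through a continuous range. Central vein cells, which were chosen without regard to Kit or Wnt2, held Kit at 5.6 and 6.45 and Wnt2 at 5.45 and 9.31, beside 7.43 and 6.72, and 4.89 and 4.34, in members.

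**Figure D1:**
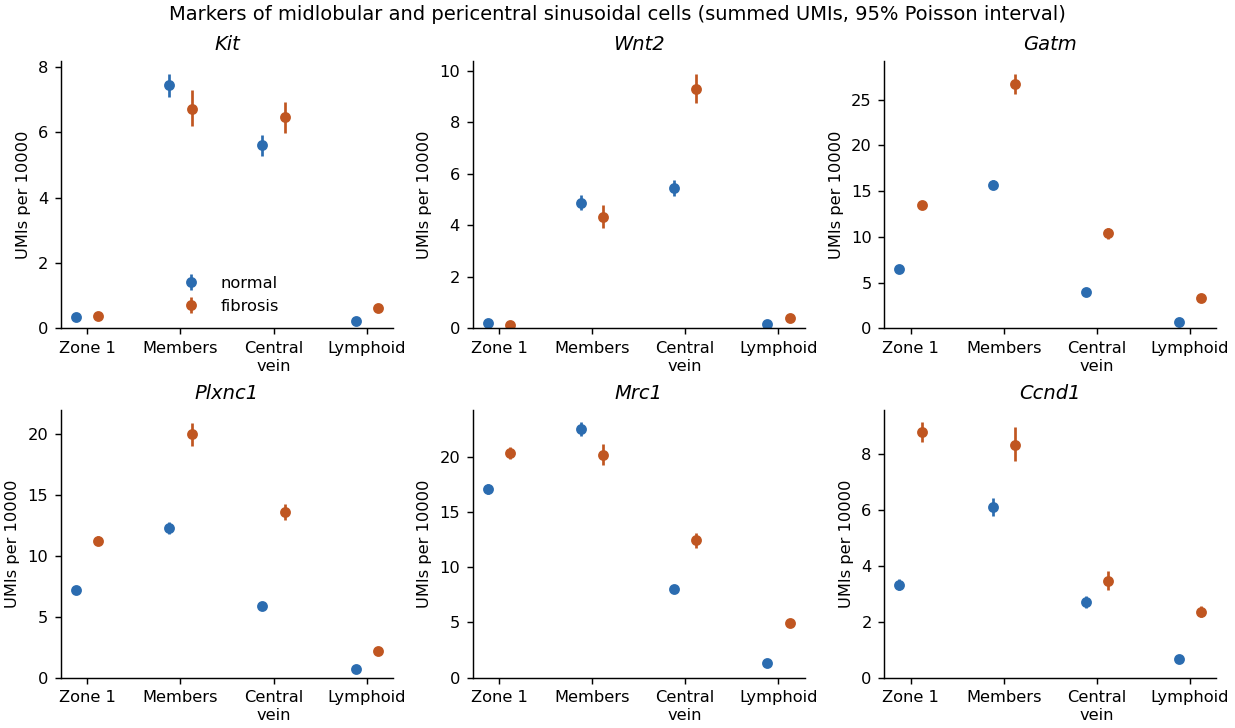
Levels of the 6 marker genes in zone 1 cells, members, central vein cells and lymphoid cells, in UMIs per 10000, for the normal and the fibrosis library, with error bars of 95% for counting error. Kit and Wnt2 chose the members, and Gatm and Plxnc1 are highest in the members in both libraries.

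The 4 other marker genes of the label took no part in the rule, though they were measured in the cells it sorted. Gatm, glycine amidinotransferase, which makes the precursor of creatine (chromosome 2, 122594467 to 122611303, GRCm38), stood at 15.7 UMIs per 10000 in normal members, 6.49 in zone 1 cells, 3.95 in central vein cells and 0.729 in lymphoid cells. In the fibrosis library the same sets held Gatm at 26.7, 13.4, 10.4 and 3.31. The order was the same in both libraries, with members on top. Plxnc1, a semaphorin receptor (chromosome 10, 94790866 to 94944835), stood at 12.3 in normal members against 7.20 in zone 1 and 5.85 in central vein cells, and at 20.0 against 11.2 and 13.6 in the fibrosis library. Mrc1, the mannose receptor through which LSECs clear glycoproteins (chromosome 2, 14229392 to 14332057), was higher in members than in zone 1 cells in the normal library only, 22.5 against 17.1, and the fibrosis values were 20.2 and 20.3. Ccnd1, the G1 cyclin (chromosome 7, 144929931 to 144939925), behaved likewise, at 6.11 against 3.33 in the normal library and 8.36 against 8.80 in the fibrosis library. All 4 markers were thus higher in members than in zone 1 cells in the normal library, and Gatm and Plxnc1 in the fibrosis library. Gatm was lower in central vein cells than in zone 1 cells in both libraries. The markers came with the label, so these values describe the members and do not support the name.

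The members made up 5.46% of kept cells in the normal library (4.96 to 6.00) and 2.05% in the fibrosis library (1.71 to 2.44), or 13.5% and 5.15% of the cells inside the endothelial gate. The endothelial gate itself held 40.5% and 39.9% of kept cells, so the gap arose after it, at the limits on other genes. Among gated cells, 78 (2.58%) were over the immune limit in the normal library and 742 (30.3%) in the fibrosis library, 683 of the latter by Cd5l alone. Cd5l is a secreted protein of Kupffer cells, and its level in lymphoid cells was 0.959 UMIs per 10000 in the normal library and 7.57 after CCl4. The stellate limit took 51 normal and 206 fibrosis cells, and Lrat in lymphoid cells stood at 0.136 and 1.23. Cells over the immune limit that met every other condition numbered 8 and 43.

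Among gated cells within those limits, the share with at least 3 UMIs of Kit and Wnt2 was 37.5% (35.8 to 39.3) for normal and 34.5% (32.1 to 36.8) for fibrosis cells. Of these cells, 40.8% and 61.7% then went over the zone 1 limit and 25.6% and 23.6% over the central vein limit. Since a fixed limit on raw counts is passed more easily by a deeper cell, each cell was also thinned to 3000 UMIs, leaving out 2433 normal and 2249 fibrosis cells that were shallower. The zone 1 limit then took 15.5% (12.8 to 18.7) and 19.8% (16.1 to 24). Members were 16.0% (14.5 to 17.6) of the cells within limits in the normal library and 13.3% (11.7 to 15) in the fibrosis library, against 14.1% and 7.81% before thinning. As a share of all kept cells the ratio of fibrosis over normal was 0.376 as deposited and 0.793 after thinning. Fewer cells of a kind and a different yield from the collagenase digestion cannot be told apart here.

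**Figure D2:**
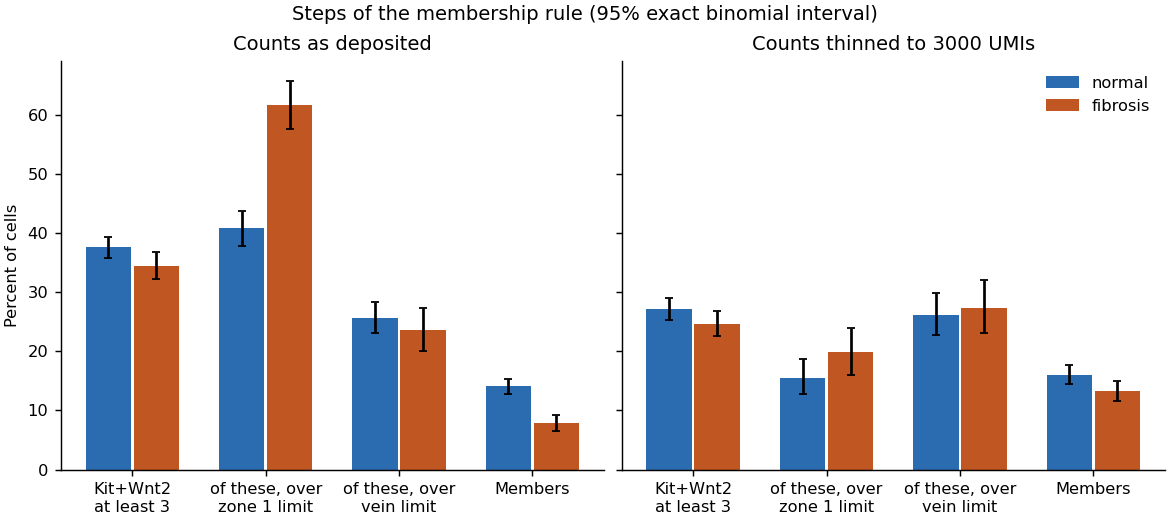
Percent of cells at steps of the membership rule in the normal (blue) and fibrosis (orange) libraries, as deposited (left) and thinned to 3000 UMIs (right), with exact binomial intervals of 95%. The first and last pair of bars are shares of gated cells within the stellate and immune limits, and the middle pairs are shares of the cells with at least 3 UMIs of Kit and Wnt2; the bars over the zone 1 limit stand at 40.8 and 61.7 on the left and 15.5 and 19.8 on the right.

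The members were next set against zone 1 cells of the same library, with the 18 genes of the rules left out. Genes at 1 UMI per 10000 or more in either set, in each library, numbered 1927. Of these, 11 (0.571%) were at least 2-fold higher in members in both libraries and 21 (1.09%) at least 2-fold lower. In the normal library 388 genes had intervals above 1 and 469 below, and in the fibrosis library 286 and 341, so most differences beyond counting error were under 2-fold. The median gene of this comparison stood at a ratio of 0.986 for normal and 0.993 for fibrosis cells.

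The genes with the largest excess over zone 1 cells included Cdh13, Olfm1, Gas6 and Ptgs1. Cdh13, the T-cadherin of the endothelial surface, which binds adiponectin, stood at 1.75 UMIs per 10000 in normal members and 0.324 in zone 1 cells, a ratio of 5.41 (4.38 to 6.71), while fibrosis members held 1.57 against 0.140, a ratio of 11.2 (7.74 to 16.5), or 6.70 with the rule applied after thinning to 3000 UMIs. At full depth its transcripts were seen in 46.1% of normal and 44.4% of fibrosis members, so a good part of the members gave no UMI of it. Olfm1, a secreted olfactomedin, was 3.03-fold (2.52 to 3.66) and 3.41-fold (2.60 to 4.49) higher in members. Gas6, the ligand of the TAM receptors that take up dying cells, was 2.96-fold and 2.77-fold higher, at 4.65 UMIs per 10000 in normal and 2.0 in fibrosis members. Ptgs1, the cyclooxygenase that starts prostanoid synthesis, was 2.65-fold and 2.17-fold higher, and Slco2a1, the prostaglandin transporter, 2.01-fold and 2.14-fold. Plpp1, a lipid phosphate phosphatase, was 3.06-fold and 2.21-fold higher, at 11.3 UMIs per 10000 in normal members. Below the level filter, Lhx6, a homeobox gene, stood at 0.60 and 0.894 UMIs per 10000 in members, 0.0169 and 0.0738 in zone 1 cells and 4.03 and 3.14 in central vein cells. Rab3b, a small GTPase of regulated secretion, was also left out by the level filter, and was 7.36-fold and 6.61-fold higher than in zone 1 cells.

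The genes lowest in members relative to zone 1 cells included Adgrg6, Mecom, Ntn4, Efnb1, Ltbp4 and Insr. Adgrg6, an adhesion receptor, stood at 0.0348 UMIs per 10000 in the members of each library, from 8 and 3 UMIs, against 2.09 and 1.36 in zone 1 cells. With the rule applied after thinning its levels in members were 0.0648 and 0.0606. Mecom, a transcription factor of arterial endothelium, had ratios of 0.0450 and 0.0463, the latter 0.133 with the rule applied after thinning. Ntn4, a netrin of basement membranes, was at 0.140 and 0.244 of the zone 1 level, and Ltbp4, which binds latent TGF-β in elastic matrix, at 0.343 and 0.228. Efnb1, an ephrin ligand, was at 0.150 and 0.341, and Insr, the insulin receptor, at 0.196 and 0.354. Of the 7 listed periportal markers that could be compared, 6 had intervals below 1 in each library. Their median ratio was 0.433 for normal and 0.531 for fibrosis cells, with 4 and 3 at least 2-fold lower. Over all 1927 genes the medians were 0.986 and 0.993, 24.3% and 17.7% had intervals below 1, and 2.08% and 1.30% were at least 2-fold lower. The rule's limit on Msr1, Efnb2 and Dll4 removed cells that carry such genes, so this is a description of the sorted cells and is not separate evidence of their place in the lobule.

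**Figure D3:**
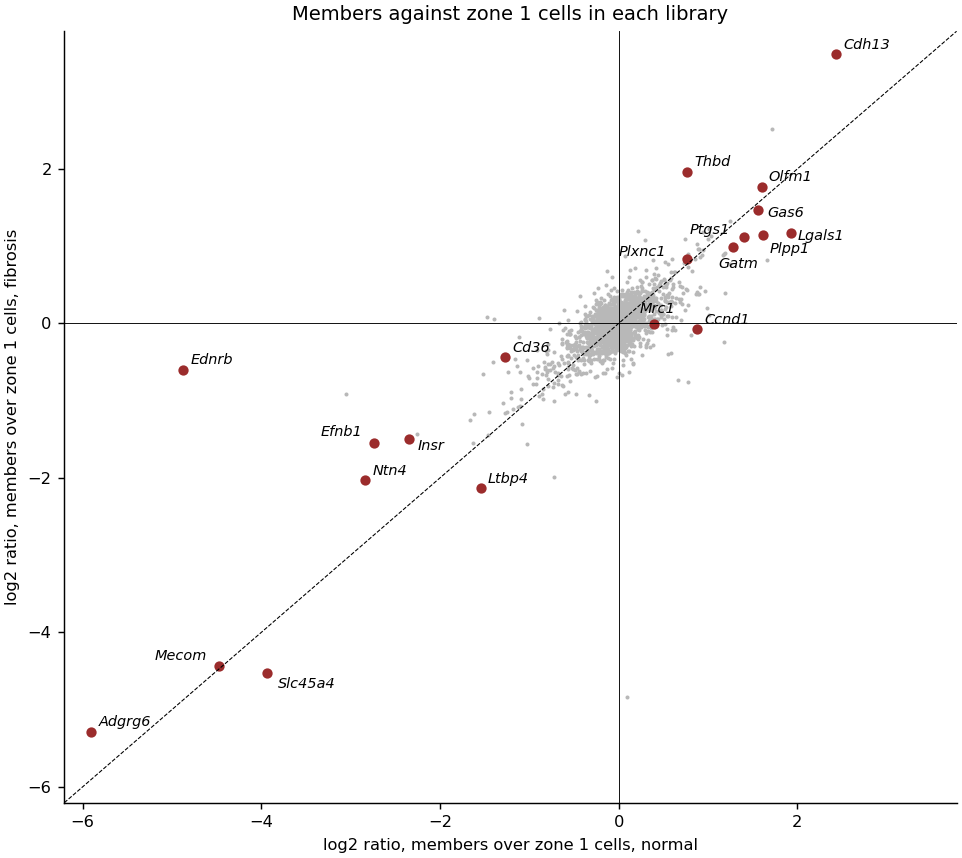
Log2 ratio of members over zone 1 cells in the normal library (horizontal axis) and the fibrosis library (vertical axis), 1 point a gene, 1927 genes. Most genes lie near 0 on both axes, with Cdh13 and Olfm1 at the upper right, Adgrg6 and Mecom at the lower left, and Ednrb far from the dashed line of equal ratios.

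Against central vein cells, 10 of 1969 genes (0.508%) were at least 2-fold higher in members in both libraries and 31 (1.57%) at least 2-fold lower. Lyve1, the hyaluronan receptor of LSECs and lymphatic vessels, was 5.74-fold (4.82 to 6.88) higher than in central vein cells in the normal library and 2.36-fold (2.10 to 2.65) in the fibrosis library. Stab2, the hyaluronan scavenger receptor, was 3.19-fold and 1.98-fold higher, and Clec4g, a lectin of LSECs, 2.24-fold and 2.11-fold. These 3 receptors were thus higher in the members than in vein endothelium in both libraries. Vwf, von Willebrand factor, stood at 0.156 and 0.0232 UMIs per 10000 in members against 9.43 and 1.42 in central vein cells. Edn1, the vasoconstrictor endothelin-1, stood at 0.122 and 0.0928 against 3.98 and 1.13. Cdh13 and Thbd, high in members relative to zone 1 cells, were higher still in central vein cells, Cdh13 at 5.52 and 4.72 and Thbd at 7.46 and 15, so that for these genes the members lay between zone 1 and vein. The rules set members and central vein cells apart by Rspo3, Wnt9b and Selp. Lower vein genes in members therefore describe the sorted cells and are not separate evidence of their place in the lobule.

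Fibrosis and normal members were compared over the 2362 genes at 1 UMI per 10000 or more in either library. Of these, 102 (4.32%) were at least 2-fold higher in the fibrosis library and 122 (5.17%) at least 2-fold lower. The median gene was 0.15 higher on the log2 scale, close to 0.12 in zone 1 cells and 0.18 in lymphoid cells. Over all 2362 genes, 878 (37.2%) had intervals above 1 and 426 (18.0%) below. Scaling by the median ratio of genes in place of total UMIs gave 67 higher and 140 lower, and UMIs per cell gave 220 higher and 105 lower, so the balance of higher and lower genes depended on the scale. Fibrosis members held a mean of 6838 UMIs and normal members 5639, so that a scale of UMIs per cell adds 0.28 (log2) to every ratio of members below, 0.39 to those of zone 1 cells and -0.08 to those of lymphoid cells.

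Marker genes of other cell types also differed between the libraries in members and are among the genes of both counts. Beside 5.17% of all genes, all 12 hepatocyte markers (such as Alb and Apoa1) were at least 2-fold lower in fibrosis members. Their summed level was 200.5 UMIs per 10000 in normal and 15 in fibrosis members, and 236 and 24.4 in lymphoid cells. All 6 Kupffer cell and macrophage markers that could be compared were at least 2-fold higher, beside 4.32% of all genes. Most compared markers of each list reached the level filter only in the library where they were high, so these counts are no finding. Csf1r, a macrophage marker below the filter, had a ratio of 1.89. Kupffer cell and macrophage markers summed to 4.34 and 14.4 in members and 7.51 and 46.9 in lymphoid cells. Stellate cell markers summed to 1.64 and 4.62 in members and 3.96 and 22.6 in lymphoid cells, 2.08 and 13.7 without the 3 lymphoid cells with most. Erythroid markers summed to 57.9 and 0.487 in members, the former 17.8 without the 3 members with most. The largest ratios of all belonged to Mmp12 (0.0174 and 1.13 UMIs per 10000), a macrophage elastase, Col1a2 (0.0261 and 1.64) and Col1a1 (0.0304 and 1.27), the fibrillar collagen of activated stellate cells, and Gpnmb, a macrophage gene, had 0 and 1.13. In fibrosis lymphoid cells Col1a1 stood at 8.17, Gpnmb at 5.06 and Mmp12 at 2.41, and without the 3 cells with most UMIs at 3.46, 3.38 and 1.60, still above the members. A UMI was found in 58.7% of fibrosis members and 52.0% of fibrosis lymphoid cells for Col1a1, 50.0% and 44.9% for Gpnmb and 51.6% and 50.9% for Mmp12, at median depths of 6616 and 2640 UMIs. The part of free RNA in these values was not tested. Among the 12 smallest ratios named were Fabp1, Bhmt, Cdo1, Ttc36 and C3, genes of hepatocytes. Igfbp5, an IGF-binding protein, was there too (1.13 and 0.0580), but 248 of its 260 normal UMIs came from 1 cell.

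Ednrb, the endothelin B receptor, which on endothelial cells clears endothelin and calls for nitric oxide release (chromosome 14, 103814625 to 103844402), had the largest ratio among the genes whose fibrosis level in members was above that in lymphoid cells. It gave 31 UMIs in the 408 normal members and 277 in the 126 fibrosis members, 0.135 and 3.21 UMIs per 10000, a ratio of 23.9 (16.4 to 35.8). Single normal members ran from 0 to 7.71 per 10000 and fibrosis members from 0 to 45.8, with medians of 0 and 1.31. UMIs were found in 28 normal members (6.86%) and 76 fibrosis members (60.3%). Most normal members thus gave no UMI of it and most fibrosis members gave at least 1. After thinning to 2000 UMIs the shares were 2.32% (1.07 to 4.36) of normal and 29.7% (21.6 to 38.8) of fibrosis members, beside 3.24% (2.26 to 4.47) and 20.3% (16.4 to 24.6) of lymphoid cells. The normal share was at the background level, and the intervals of the fibrosis shares overlapped. In summed levels the fibrosis members were above the lymphoid cells (3.21 against 1.60) and the normal members below them (0.135 against 0.244). Without the 3 lymphoid cells with most of its UMIs the background was 0.158 in the normal library and 1.19 with fibrosis. In zone 1 cells Ednrb stood at 3.96 and 4.86, a ratio of 1.23, and in central vein cells at 1.28 and 16.3, a ratio of 12.8. The level in members relative to zone 1 cells was accordingly 0.0340 without and 0.661 with fibrosis, or 0.0513 and 0.782 with the rule applied after thinning. The fibrosis member with most Ednrb gave 30 of the 277 UMIs, and with the rule applied after thinning the levels were 0.204 and 3.82.

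Of the 40 genes at least 2-fold lower in normal members than in normal zone 1 cells, Ednrb among them, the ratio of members over zone 1 cells was higher with fibrosis for 36 and lower for 4, and the 2 intervals did not overlap for 14 and 2 of these. These genes were picked by a low normal ratio, a choice that itself favours a value nearer 1 in the other library, and of the 20 genes at least 2-fold higher in normal members 13 had a lower ratio with fibrosis. The laminin chain Lama4 (0.363 and 0.369) hardly moved, and the solute carrier Slc45a4 (0.0654 and 0.0432) and Ltbp4 (0.343 and 0.228) went down. Mecom hardly moved at full depth (0.0450 and 0.0463) but was at 0.0578 and 0.133 with the rule applied after thinning. Cd36, the fatty acid and thrombospondin receptor (chromosome 5, 17781690 to 17888801), stood at 3.76 and 13.7 UMIs per 10000 in members, 3.64-fold (3.33 to 3.97), against 2.03-fold in zone 1 cells, and its ratio of members over zone 1 cells was 0.413 without and 0.738 with fibrosis. Its median over single members was 2.44 and 12.1 per 10000, and thinned cells with a UMI made up 45.4% and 89.0% of members, beside 8.32% and 53.2% of lymphoid cells. Ly6a, the surface antigen Sca-1, stood at 0.930 and 3.03 in members, 3.26-fold (2.71 to 3.92), and was lower in fibrosis zone 1 cells as a share of UMIs, at a ratio of 0.737. Its level in lymphoid cells, which express it, was 3.38 and 2.72. Efnb1, Insr and Ntn4 had ratios of 1.66, 1.38 and 1.30 in members and 0.730, 0.766 and 0.744 in zone 1 cells. With the rule applied after thinning, the intervals of Insr (1.23, 0.903 to 1.66) and Ntn4 (1.12, 0.876 to 1.42) in members held 1. In UMIs per cell the zone 1 ratios of Ly6a, Efnb1, Insr and Ntn4 were 0.967, 0.958, 1.01 and 0.975, and those of members were above 1.5. For Ednrb and these 5 genes, picked out for this pattern after their values were seen, the fibrosis members were nearer to zone 1 cells than normal members were. Ltbp4 stood at 3.78 and 1.33 in members, a ratio of 0.353 against 0.532 in zone 1 cells.

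Listed pericentral genes were mostly higher in fibrosis members. Of the 4 of 6 midlobular and pericentral markers that could be compared, 3 had intervals above 1 and 1, Mrc1, below, with a median ratio of 1.49. Of the 6 of 13 other pericentral endothelial genes, 4 were above and 0 below, with a median of 1.54. Over all genes these figures were 37.2%, 18.0% and 1.11, and in UMIs per cell the medians were 1.81 and 1.87 beside 1.34. Gatm was 1.70-fold (1.62 to 1.79) higher in fibrosis members and Plxnc1 1.63-fold (1.53 to 1.73), close to their ratios of 2.07 and 1.56 in zone 1 cells. In single members the median of Gatm was 13.8 and 25.5 UMIs per 10000, and of Plxnc1 10.6 and 19.3, with ranges that overlapped. Ccnd1 was 1.37-fold (1.25 to 1.5) higher in members and 2.65-fold in zone 1 cells. Thbd, thrombomodulin, the thrombin receptor that activates protein C, stood at 3.00 and 6.50 in members, 2.16-fold (1.93 to 2.42), and at 1.77 and 1.66 in zone 1 cells. Cdh13 (0.895, 0.731 to 1.09) and Ptgs1 (0.898, 0.781 to 1.03) had intervals that held 1, though that of Cdh13 was below 1 with the rule applied after thinning (0.713, 0.554 to 0.911). Gas6, of neither list, was at 4.65 and 2.0.

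Among the 12 largest ratios in members that differed by at least 1 (log2) from those in lymphoid cells were 4 genes of the endoplasmic reticulum. Hspa5, the Hsp70 chaperone BiP, stood at 5.73 and 23.9 UMIs per 10000, a ratio of 4.16 (3.88 to 4.47), and Hsp90b1, the chaperone Grp94, at 7.23 and 26.3, a ratio of 3.63 (3.41 to 3.87). Pdia6, a disulfide isomerase, stood at 2.0 and 7.16, a ratio of 3.57 (3.16 to 4.04), and Creld2, a secreted stress protein, at 0.283 and 1.27, a ratio of 4.48 (3.26 to 6.19). All 4 were as much higher in zone 1 cells, with ratios of 3.72, 4.18, 3.88 and 4.49, whereas in lymphoid cells the ratios of summed levels were 0.974, 0.836, 1.21 and 0.646. Weighing each lymphoid cell equally, they were 1.36, 1.34, 1.78 and 1.09, and 4.30, 3.87, 3.92 and 5.45 in members. The rule that named these genes required a gap of at least 1 (log2) to lymphoid cells, so the smaller lymphoid ratios are no finding. Lymphoid cells express such genes themselves, with Hspa5 at 14.1 and 13.7 UMIs per 10000 and Hsp90b1 at 24.8 and 20.7, above the normal members. At full depth the share of lymphoid cells with a UMI was 83.1% and 95.1% for Hspa5 and 47.6% and 63.3% for Pdia6. Also among the 12 were Hsph1, a cytosolic heat shock protein (3.59-fold), Tnfaip3, the NF-κB inhibitor A20 (4.10-fold, and 8.36-fold after thinning), and Dusp5, a nuclear phosphatase of ERK (3.54-fold).

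The promoters of the 4 chaperone genes are shown because they share a sequence that few others hold, the ER stress response element, spelled CCAAT, 9 bases of any kind, then CCACG. It was searched on both strands in the RefSeq windows of 300 bases (250 before to 50 after the start of each gene, GRCm38.p6). The capitals mark the fixed letters, and each element is written 5′ to 3′ on the strand that carries it.
Hspa5 (2:34772025-34772043): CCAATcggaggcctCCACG
Hsp90b1, nearer (10:86705533-86705551): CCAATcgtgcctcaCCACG
Hsp90b1, farther (10:86705638-86705656): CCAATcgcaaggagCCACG
Pdia6 (12:17266491-17266509): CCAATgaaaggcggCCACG
Creld2 (15:88819520-88819538): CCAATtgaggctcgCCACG

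The element lies on the strand of the gene in Hspa5, Pdia6 and the farther Hsp90b1 copy and on the opposite strand in the other two. Of all 32851 promoter windows 39 (0.119%) hold it, and of the 1856 compared genes with a window 9 (0.485%). Of those 9 genes, 7 were at least 2-fold higher in fibrosis members and 0 at least 2-fold lower, where 79 of the 1856 were at least 2-fold higher. Beside the 4 above these were Calr, calreticulin (2.37), Canx, calnexin (2.14), both lectin chaperones, and Syvn1, a ubiquitin ligase of the reticulum (2.18). The remaining pair, Dnajc3, a BiP co-chaperone, and Hnrnpa3, an RNA-binding protein, had ratios of 1.59 and 1.27. The search was prompted by the 4 chaperone genes, which are among the 7. Creld2 (0.283 and 1.27) and Syvn1 (0.478 and 1.04) reached the level filter only in the fibrosis library. The count of 7 was thus largely set by the choice of genes and is no finding. The element was looked for after the chaperone genes had been seen, its presence is a description of the sequence, and binding to it was not measured.

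**Figure D4:**
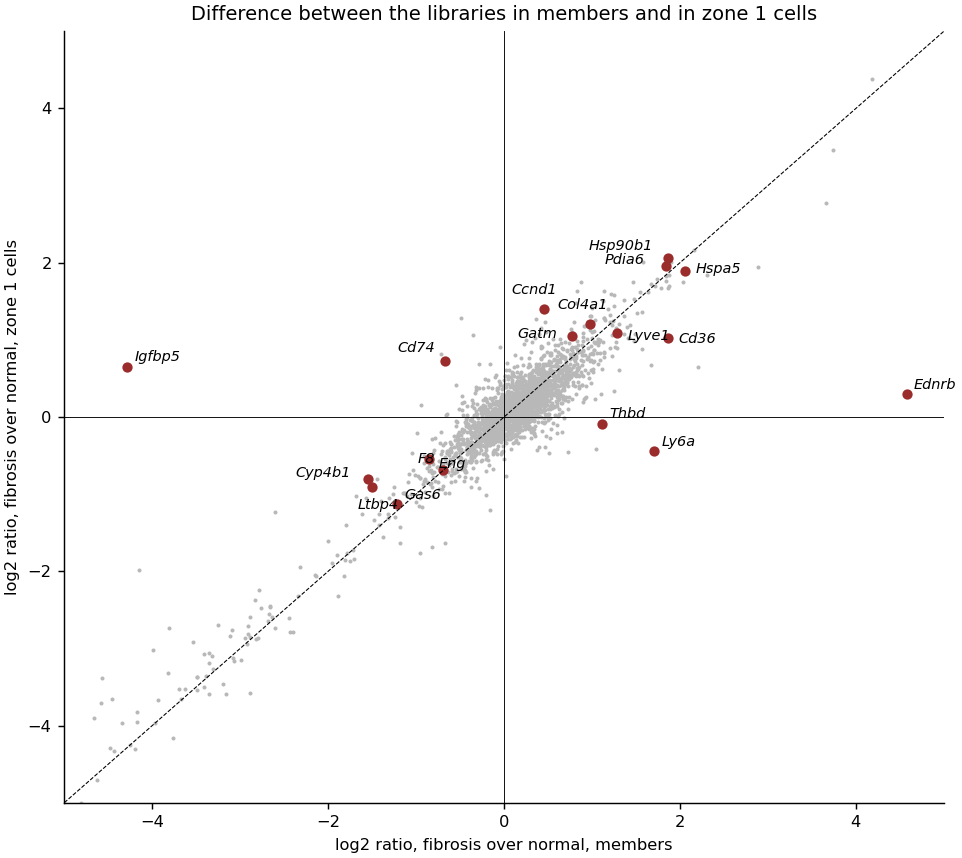
Log2 ratio of fibrosis over normal in members (horizontal axis) and in zone 1 cells (vertical axis), 1 point a gene, 2347 genes drawn, with a dashed line where both are equal. Hspa5 and Hsp90b1 lie near the line, while Ednrb lies far to the right of it.

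Scavenger and clearance receptors were mostly a little lower in fibrosis members as a share of UMIs, and a little higher per cell. Of the 11 of 18 listed genes that could be compared, 7 had intervals below 1 (18.0% of all genes) and 2 were at least 2-fold higher (4.32% of all genes), with a median ratio of 0.867 beside 1.11 over all genes, or 1.05 beside 1.34 in UMIs per cell. Stab1 and Stab2, which take up modified proteins and hyaluronan, had ratios of 0.867 and 0.858 (0.803 to 0.916), and 1.05 and 1.04 in UMIs per cell. In zone 1 cells their ratios were 1.06 and 1.07. Fcgr2b, the receptor that removes small immune complexes, stood at 20.9 and 14.2 UMIs per 10000, a ratio of 0.680. Ehd3, an endocytic recycling protein, was the most abundant of them, at 34 and 26.1, a ratio of 0.767. The 2 on the other side were Cd36 and Lyve1, the latter at 3.93 and 9.58, 2.43-fold (2.21 to 2.68) in members and 2.13-fold in zone 1 cells.

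Receptors and junction genes of endothelium had a median ratio of 0.963 over 21 of 26 listed genes, 1.17 in UMIs per cell, with 0 at least 2-fold higher or lower, beside 4.32% and 5.17% of all genes. Eng, the BMP9 co-receptor endoglin, was lowest, at 14.1 and 7.83, a ratio of 0.555 (0.511 to 0.604) against 0.683 in zone 1 cells. Gpihbp1, which carries lipoprotein lipase to the capillary surface (0.594), and Cldn5, a tight junction claudin (0.609), followed. Flt1, Nrp1, Tek and Cdh5, which carry VEGF, semaphorin, angiopoietin and adherens junction functions, had ratios between 0.928 and 1.01, and Mcam, an adhesion molecule, was at 1.95. Of 19 transcription factors compared, from 27 listed, 10 had intervals above 1 and 4 below, beside 37.2% and 18.0% of all genes. Klf2, induced by flow, was at 1.42 and Nr2f2, which sets venous identity, at 1.5, while Maf, which keeps the LSEC programme, was at 0.889, at 31.4 and 27.9 UMIs per 10000, and Gata4, a regulator of LSEC differentiation, at 1.16 (0.983 to 1.36).

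Among angiocrine ligands, Bmp2, which drives hepcidin synthesis in hepatocytes, stood at 22.2 and 19.0 UMIs per 10000 in members, a ratio of 0.853 (0.806 to 0.902) that turned to 1.03 in UMIs per cell, and was 1.44-fold and 1.41-fold higher in members than in zone 1 cells. Hgf, the hepatocyte growth factor, was at 0.695 and 1.30 (1.87), and Tnfsf10, the death ligand TRAIL, at 1.22 and 0.487 (0.401). Hgf was at 0.129 and 0.701 in lymphoid cells, and Igf1 at 1.36 and 1.38, above the members in both libraries. Of the 6 ligands compared, from 21 listed, 0 were at least 2-fold higher and 2, Tnfsf10 and the insulin-like growth factor Igf1 (1.06 and 0.36), at least 2-fold lower, beside 4.32% and 5.17% of all genes.

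Of basement membrane and capillary genes, the collagen IV chains, perlecan and Sparc were higher in fibrosis members. Of the 10 of 23 listed genes that could be compared, 7 had intervals above 1 and 0 below, beside 37.2% and 18.0% of all genes, with a median ratio of 1.36 beside 1.11. Col4a1, a collagen IV chain, stood at 6.07 and 11.9 UMIs per 10000, a ratio of 1.97 (1.81 to 2.13), and Col4a2, its partner, was at 1.70. Hspg2, perlecan, was at 1.52. The zone 1 ratios were higher, at 2.31, 2.08 and 1.72. Col4a1 was also higher in lymphoid cells, at 0.375 and 4.76, as was Sparc, a matrix-binding glycoprotein, at 1.26 and 14 there beside 11.4 and 19.6 in members. Without the 3 cells with most UMIs the fibrosis lymphoid levels were 3.06 for Col4a1 and 8.95 for Sparc. Fn1, fibronectin, the 1 compared gene past 2-fold, stood at 0.674 and 1.79, but at 0.841 in fibrosis members without the 3 cells that gave 54.5% of its UMIs, and at 2.93 in fibrosis lymphoid cells. Cd34, a gene of continuous endothelium, was below the level filter, with ratios of 6.90 in members, 4.47 in zone 1 cells and 3.86 in lymphoid cells. The part of free RNA in these ratios was not tested. The water channel Aqp1 (0.982) and the diaphragm protein Plvap (1.19, 1.01 to 1.41) were near the median gene. Fibrillar collagen and mesenchymal genes had a median of 1.22 over 7 of 21 listed genes, beside 1.11, with 4 intervals above 1 and 1 below. The 2 compared genes past 2-fold, beside 4.32% of all genes, were Col1a1 and Col1a2. Their fibrosis levels in members were below those of lymphoid cells, also without the top 3 cells (3.46 and 5.40). Vim, vimentin, was at 1.48 and Twist1, a mesenchymal factor, at 1.22 (0.953 to 1.55). Acta2 and Col3a1, which the paper counts among mesenchymal and matrix genes, were below the level filter and are not in this median. Their ratios were 18.7 and 9.83 in members and 225 and 30.4 in lymphoid cells, and the part of free RNA in them was not tested.

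**Figure D5:**
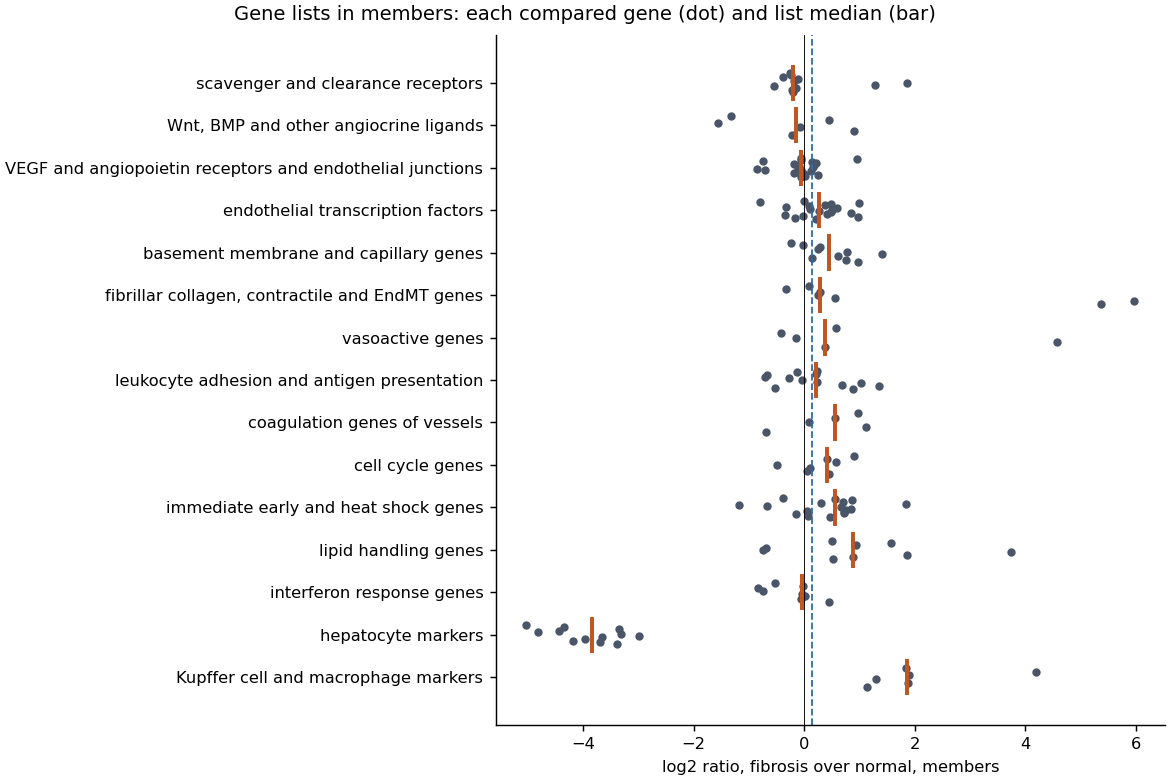
Log2 ratios of fibrosis over normal in members for 15 gene lists, 1 point a gene, with the list median as an orange bar and the median of all 2362 genes as a blue dashed line. The medians of lipid handling and immediate early genes lie above the line and that of scavenger receptors below it; on a scale of UMIs per cell every point and the line move right by 0.28, which takes the scavenger median past 0.

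Lipid handling genes had the highest median of the endothelial lists described, 1.84 over 9 of 13 listed genes, 3 of them at least 2-fold higher, beside a median of 1.11 and 4.32% over all genes. Besides Cd36 these were Lpl, lipoprotein lipase (0.139 and 1.86), and Scd2, a fatty acid desaturase (0.622 and 1.85). Lymphoid cells of the fibrosis library held Lpl at 5.34 and Scd2 at 1.79, beside those member levels. Lpl and Scd2 reached the level filter only in the fibrosis library, so the count and the median lean on genes let in because they were high there. Over the list 7 intervals were above 1 and 2 below, beside 37.2% and 18.0% of all genes. Gpihbp1, also of this list, was lower, at 9.81 and 5.83. Fabp4, a fatty acid binding protein of capillaries, was at 8.79 and 12.7, a ratio of 1.44 (1.34 to 1.55), with 2.65 in fibrosis lymphoid cells.

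Genes of leukocyte contact had a median of 1.16 over 13 of 20 listed genes. Vcam1, the ligand of integrin α4β1, stood at 0.887 and 2.27 UMIs per 10000 (2.57, 2.10 to 3.14), and at 0.205 and 2.36 in lymphoid cells. Without the 3 lymphoid cells with most of its UMIs the fibrosis background was 1.89, and after thinning to 2000 UMIs 33.1% of fibrosis members and 36.1% of fibrosis lymphoid cells gave a UMI. Cxcl10, an interferon-induced chemokine, was at 3.93 and 8.02 (2.04), and Icam1 at 1.85. Each was close to its zone 1 ratio, 2.49, 1.96 and 1.92. Cd74, the class II invariant chain, had a ratio of 0.627 in members and 1.65 in zone 1 cells, yet 46.5% of its normal UMIs in members came from 3 cells, and without the 3 cells of each set with most the ratios were 0.809 and 1.03. Interferon response genes had a median of 0.967 over 8 of 15 listed genes, 1.17 in UMIs per cell. Among vessel coagulation genes, F8, factor VIII, which LSECs supply, stood at 10.4 and 6.41 (0.616, 0.561 to 0.676), the same ratio as in zone 1 cells (0.618), opposite in direction to Thbd.

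Of 17 compared immediate early and heat shock genes, 11 had intervals above 1 and 4 below, beside 37.2% and 18.0% of all genes, with a median of 1.47 beside 1.11. Junb was at 1.65, and Hspa1b, an inducible Hsp70, at 2.88 and 1.27 (0.439). In the cell cycle list the median was 1.34 over 7 of 18 listed genes. Cells with at least 3 UMIs of Mki67 and Top2a, a limit set after values were seen, were 19 of 408 normal members (4.66%, 2.83 to 7.18) and 6 of 126 fibrosis members (4.76%, 1.77 to 10.1). In zone 1 cells they were 7 (1.10%) and 12 (3.25%). The 19 cells held 469 of the 530 UMIs of both genes in normal members and were deeper (median 9263 UMIs).

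Within the members, 33 normal and 7 fibrosis cells were led by Wnt2 (at least 3 UMIs, with no more than 1 of Kit) and 101 and 36 by Kit in the same sense. Of 1914 genes, 36 (1.88%) were at least 1.5-fold higher in Wnt2-led cells in both libraries and 27 (1.41%) at least 1.5-fold lower. With only 7 cells in 1 of the sets the fibrosis values are imprecise, and the genes named here as higher or lower have intervals off 1 in both libraries. Gja4, the connexin 37 of vessel walls, stood at 2.67 against 1.34 UMIs per 10000 in the normal library (1.99, 1.34 to 2.94) and 7.87 against 3.36 in the fibrosis library (2.34, 1.49 to 3.62). Plxnc1 was 1.62-fold (1.38 to 1.90) and 1.57-fold (1.25 to 1.95) higher in Wnt2-led cells. Tmsb10, an actin-binding thymosin, was at 0.551 and 0.363 of the Kit-led level. Gatm did not follow either gene in the normal library, with a ratio of 0.963 (0.820 to 1.13), and was at 1.43 in the fibrosis library.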

How the data were processed

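The authors aligned reads of 10x Chromium version 3 3′ libraries to mm10 with Cell Ranger 3.0.1 and deposited UMI counts per gene and cell, without normalization. NPCs had been obtained by two-step collagenase perfusion with hepatocytes removed by centrifugation. Per the methods doublets were excluded; Scrublet in scanpy 1.11.5 called 3 and 1 cells, whether few doublets were left or the caller missed them cannot be told apart, and none was removed. Levels are summed UMIs of a cell set per 10000 UMIs of that set, with exact Poisson intervals, exact conditional intervals for ratios and exact binomial intervals for shares, at 95% (Python 3.11.15, numpy 2.4.6, scipy 1.17.1). UMIs lost to capture are not covered by them. Genes under 1 UMI per 10000 in both sets were not compared. Shares of cells with a UMI are at full depth unless said to be of cells thinned to 2000 UMIs. The ratio code was tested on simulated data.

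The members, gene lists and cell sets were chosen with earlier results of these data known. Named genes are listed genes, the 12 genes at each end of the fibrosis to normal ratio whose log2 ratio differed by at least 1 from that in lymphoid cells, the 12 of each direction against zone 1 cells and the 8 of each direction between Wnt2-led and Kit-led members, without mitochondrial, ribosomal, haemoglobin, immunoglobulin and rule genes. A gene of this rule is not reported here. Calr, Canx, Syvn1, Dnajc3, Hnrnpa3 and the promoter search were added after values were seen. Of 329 listed genes 327 were in the tables. Positions are from GENCODE (GRCm38), promoter windows from RefSeq (GRCm38.p6).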

Additional observations from a re-analysis of the deposited data

Results flagged for a closer look

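For 12 of the 210 listed or named genes compared, the ratio of fibrosis over normal lay on opposite sides of 1 in members and in zone 1 cells, with both intervals off 1. Over all 2362 genes compared there were 30 (1.27%). These differences were not tested, because each library is 1 mouse. Genes higher in fibrosis members and lower in fibrosis zone 1 cells, as a share of UMIs, were Ly6a (3.26 and 0.737), Efnb1 (1.66 and 0.730), Insr (1.38 and 0.766) and Ntn4 (1.30 and 0.744). Genes lower in fibrosis members and higher in fibrosis zone 1 cells were the receptors Mrc1 (0.896 and 1.19), Stab1 (0.867 and 1.06) and Stab2 (0.858 and 1.07), the transcription factor Zeb1 (0.795 and 1.24), the topoisomerase of dividing cells Top2a (0.710 and 2.43), the class II genes Cd74 (0.627 and 1.65) and H2-Eb1 (0.609 and 1.76), and Igfbp5 (0.0514 and 1.57). With the rule applied after thinning, the members' ratios of Insr (1.23, 0.903 to 1.66) and Ntn4 (1.12, 0.876 to 1.42) had intervals that held 1. On a scale of UMIs per cell Mrc1, Stab1 and Stab2 in members were above 1 (1.09, 1.05 and 1.04), on the side of zone 1 cells. On that scale the zone 1 ratio of Insr was 1.01, on the side of members, and those of Ntn4, Ly6a and Efnb1 were 0.975, 0.967 and 0.958. Without the 3 cells of each set with most UMIs of the gene, the ratios in members and zone 1 cells were 0.944 and 0.949 for H2-Eb1, no longer opposite, 0.809 and 1.03 for Cd74, 0.478 and 2.22 for Top2a and 0.273 and 1.54 for Igfbp5, whose full value rests on 1 normal cell. The other 8 genes kept opposite sides without these cells.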

How the results depend on the processing

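The share of members, 5.46% of kept normal and 2.05% of kept fibrosis cells, depended on the limits of the rule. It was 2.64% and 0.528% with a mitochondrial limit of 5%, 7.05% and 2.63% with at least 2 UMIs of Kit and Wnt2, 3.57% and 1.45% with at least 5, 7.15% and 5.67% after thinning to 3000 UMIs, and 14.6% and 9.07% without limits on zone and vessel genes, and 4.79% in the normal library with an endothelial gate of 40 per 10000. The fibrosis library was lower each time. Counts past 2-fold moved with the level filter: at 0.5 UMIs per 10000, 181 higher and 228 lower in fibrosis members, and 19 higher and 36 lower than in zone 1 cells; at 2, 48 and 66, and 4 and 11. Median-of-ratios scaling left 67 higher in fibrosis, and UMIs per cell gave 220. Wnt2-led against Kit-led counts were 126 higher and 117 lower at the 0.5 filter and 61 and 45 when each cell weighed equally. Among 42 named genes, 213 recomputed ratios of fibrosis over normal stayed within the counting interval of the main value, 80 moved outside it, and 1 past 2-fold reversed: Igfbp5, 2.62 after thinning. Among the ratios that crossed 1 in UMIs per cell were those of Mrc1 (1.09), Stab1 (1.05), Stab2 (1.04), Clec4g (1.07), Bmp2 (1.03) and Ptgs1 (1.09). Over all 2362 genes, 877 ratios were below 1 as a share of UMIs and 418 in UMIs per cell. Of the ratios over zone 1 cells, for 21 genes, 224 stayed and 28 moved. Tnfaip3 was 8.36-fold higher after thinning. With 1 library per condition, no library could be left out. Depth limits the members of the fibrosis library most, 126 cells with 861610 UMIs, where a gene at 1 UMI per 10000 rests on about 86 UMIs.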
